A study of Homo sapiens with 6 samples.

Results

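Transcripts of the EGFR family were followed in OVCA432 cells treated with the secreted microfibril protein MFAP5 (microfibrillar associated protein 5). OVCA432 is an established human line derived from a high grade serous carcinoma of the ovary. The genes were the receptors EGFR, ERBB2 and ERBB3, the ligands AREG, EREG, HBEGF, TGFA, BTC and NRG1, and the inhibitor ERRFI1, taken as a list of 10 symbols. Every probe set carrying exactly 1 of these symbols in the platform annotation was used, which gave 35 probe sets for 9 of the 10 genes, out of 54613 probe sets in all. AREG was not analysed here. Cells of the treated group received 200 ng/mL of recombinant human MFAP5, and control cells an equal amount of solvent. Both groups came from the same line, had been kept without serum for 24 h, and were harvested 48 h after the addition in medium without serum. Each group had 3 independently prepared samples, each on its own Affymetrix U133 Plus 2.0 array, a chip that measures a transcript through sets of short probes. All comparisons rest on 1 cell line.

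The deposited values were MAS5 signals, a linear brightness per probe set in arbitrary units, scaled by the authors to a trimmed mean of 500.07 on every array. As a mark of background served the 27 Bacillus control probe sets, which match no human RNA, and 27209 to 36073 probe sets per array exceeded the brightest of them. Correlations of log2 signals, taken across probe sets that are not independent replicates, were 0.984 to 0.988 within a group, against 0.967 to 0.971 between MFAP5 and control arrays. The label was checked against marker genes: all 10 epithelial and serous ovarian markers, among them EPCAM, PAX8, WT1 and MUC16, lay above the Bacillus controls on all 6 arrays. Of these 10, limma called 4 higher with MFAP5 (EPCAM, KRT7, PAX8 and MUC16) and 1 lower (WT1). Among all tested probe sets 13.5% were called higher and 11.8% lower. The EPCAM groups overlapped, and its call was near the threshold (limma adjusted p = 0.0489, and 0.0889 without the brightness filter). MUC16, the CA125 antigen, was 3.63-fold higher (limma adjusted p = 6.44e-07), PAX8 1.45-fold higher (0.000443) and WT1 1.33-fold lower (0.00259). The summed signal of the 10 was 106327 to 113649 on MFAP5 arrays and 94649.6 to 105221 on control arrays, and its part in the results was not tested. Of 8 fibroblast markers 2 lay above the Bacillus controls on all 6 arrays, COL1A1 and COL1A2. None of the 4 endothelial and none of the 4 measured leukocyte markers did. The summed signal of the fibroblast markers was 358 to 419 on MFAP5 arrays and 288 to 358 on control arrays, and no marker of the fibroblast, endothelial and leukocyte lists was called. Precision is limited throughout by having 3 arrays per group.

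EGFR and its relatives ERBB2, ERBB3 and ERBB4 are receptor tyrosine kinases that pair up at the cell surface when a ligand binds, and then recruit adaptors that start the RAS to ERK and the PI3K to AKT cascades. AREG, EREG, HBEGF, TGFA and BTC are made as membrane proteins and shed by metalloproteases, after which they bind EGFR, and HBEGF, BTC and EREG bind ERBB4 as well. Neuregulin NRG1 binds ERBB3 and ERBB4, ERBB2 has no known ligand of its own and serves as the preferred partner, and ERBB3 has little kinase activity. ERRFI1 (also named MIG6) is an inhibitor that is induced by receptor signalling and binds the kinase domain of EGFR and ERBB2. In ovarian carcinoma these receptors and ligands are known as regulators of growth.

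The RefSeq starts of the genes that rose are shown because the study linked MFAP5 to CREB. This factor binds the letters TGACGTCA or the shorter TGACG. A common cause of the rises was not tested. A window of 250 bases upstream of the start was available for 8 of the 10 genes, as 10 windows, and those of EGFR, ERBB2 and ERRFI1 are printed 5′ to 3′ on the gene's strand (RefSeq, build GRCh38.p14). NRG1 rose as well, but its sequence is not shown. ERBB2 is shown by the only window available, whose start need not be its main one. Which starts these cells used was not tested. The windows lie at chr7:55018767-55019016 (plus strand) and chr7:55109589-55109838 (plus) for EGFR, whose later start lies within the gene, at chr17:39687844-39688093 (plus) for ERBB2 and at chr1:8026310-8026559 (minus) for ERRFI1. Capitals mark matches, on either strand, to TGACG, to TGANTCA (AP-1 letters, loosely, with any base at N), to GGGCGG (the GC box) and to GGAATG (the TEAD letters).
EGFR main start: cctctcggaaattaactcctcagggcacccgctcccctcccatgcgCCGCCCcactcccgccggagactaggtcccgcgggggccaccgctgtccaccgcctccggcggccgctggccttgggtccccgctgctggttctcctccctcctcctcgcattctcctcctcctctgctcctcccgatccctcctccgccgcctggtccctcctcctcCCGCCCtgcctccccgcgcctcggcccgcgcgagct
EGFR inner start: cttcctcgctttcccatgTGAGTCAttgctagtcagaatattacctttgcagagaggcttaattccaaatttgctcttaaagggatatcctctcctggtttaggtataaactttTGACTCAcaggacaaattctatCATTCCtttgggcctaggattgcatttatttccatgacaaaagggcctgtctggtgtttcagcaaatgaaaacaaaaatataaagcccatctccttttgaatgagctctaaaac
ERBB2: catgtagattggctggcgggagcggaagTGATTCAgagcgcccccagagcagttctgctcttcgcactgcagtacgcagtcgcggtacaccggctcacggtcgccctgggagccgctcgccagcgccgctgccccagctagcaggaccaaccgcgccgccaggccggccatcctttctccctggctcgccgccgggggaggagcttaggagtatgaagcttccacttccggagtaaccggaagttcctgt
ERRFI1: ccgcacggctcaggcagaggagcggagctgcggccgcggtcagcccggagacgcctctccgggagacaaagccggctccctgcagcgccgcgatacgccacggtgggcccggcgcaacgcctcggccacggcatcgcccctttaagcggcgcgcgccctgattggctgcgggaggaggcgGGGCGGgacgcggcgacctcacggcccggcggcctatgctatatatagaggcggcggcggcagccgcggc

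None of these 4 windows held TGACGTCA or TGACG, which occurred in 1.65% and 21.2% of the 35116 RefSeq windows of this length. The GC box, found in 42.6% of all windows, occurred at 2 places in the main EGFR window and at 1 in that of ERRFI1. The loose AP-1 letters TGANTCA, found in 6.57% of all windows, occurred at 2 places in the inner EGFR window, starting 232 and 136 bases upstream. They occurred at 1 place in that of ERBB2, as TGATTCA. The TEAD letters (11.9% of all windows) occurred once in the inner EGFR window. Among the 10 windows TGACGTCA was present in 1, that of AREG, whose transcript was not analysed here. TGACG was present in 3 of the 10, those of AREG, EREG and TGFA, and the GC box in 5. The windows with a GC box include those of HBEGF and TGFA, which were not called. A match is a description of letters and not a site, and a missing match says nothing about a factor.

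In the MFAP5 cells EGFR mRNA was clearly higher, NRG1, ERRFI1 and ERBB2 mRNA moderately so by at least 1 probe set each, and no member was called lower. ERBB3 and the EGFR ligands HBEGF, TGFA and BTC were not called, and EREG was not brighter than the Bacillus controls on any array. A probe set was tested when its mean log2 signal reached the median over the array (53.7 as a signal), and called at a limma p below 0.05 after Benjamini-Hochberg adjustment over all 27307 tested. Of the 35 probe sets 21 passed this filter, from 8 genes, and 9 of the 21 were called higher, in 4 genes. Across all tested probe sets 13.5% were called higher and 11.8% lower. None of the 21 was called lower by limma, and none was lower at an unadjusted p below 0.05, where 13 were higher. Among the 13 were EGFR 1565483_at and NRG1 208232_x_at, with mean control signals of 43.8 and 46.6, below the filter. Both passed it through their MFAP5 arrays, so their direction was partly fixed by the filter. Of the 9 called higher, 5 belonged to EGFR, which share a transcript, so of the 15 tested probe sets of the other genes 4 were called. The median log2 fold change of the 21 was 0.63, against 0.02 over all tested probe sets. The members were chosen with earlier results of these data known, so their counts and median are a description. With all arrays centred on their medians, 2302 probe sets were higher and 5975 lower in all, against 3679 higher and 3209 lower in the deposited scaling, and 8 member probe sets were called higher and 0 lower. These are RNA levels of whole cultures, in which more cells with a transcript and more RNA per cell cannot be told apart.

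**Figure D1:**
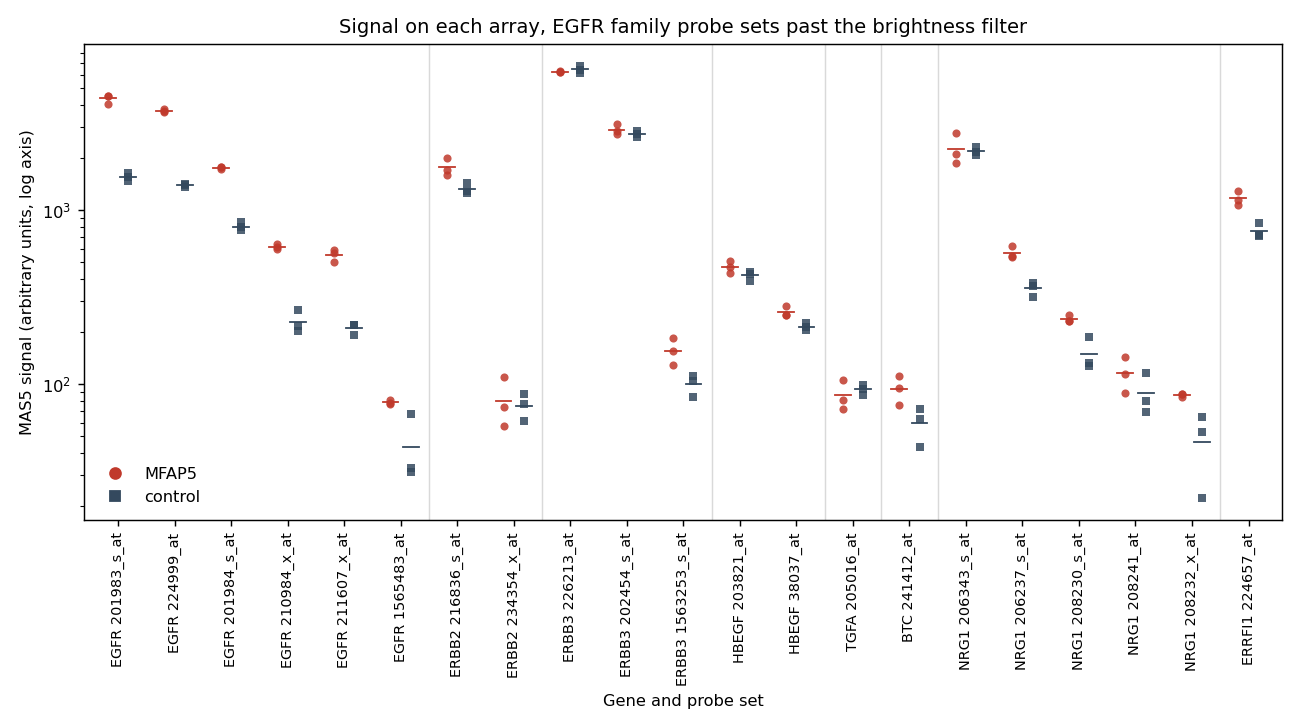
MAS5 signal (log axis) of the 21 probe sets past the brightness filter, grouped by gene, with 1 point per array and a bar at the mean of each group of 3. For the 5 brightest EGFR probe sets the MFAP5 arrays lie far above the control arrays, while the arrays of both groups mix for the bright ERBB3 probe sets.

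EGFR, the receptor for most of the ligands studied here, rose 2.18-fold to 2.83-fold by its 5 called probe sets. The brightest, 201983_s_at, had signals of 4535, 4542 and 4070.04 on the MFAP5 arrays, against 1627, 1538 and 1477 on the control arrays. The lowest MFAP5 array was thus well above the highest control array. The log2 fold change was 1.50 ± 0.07 (SE, n = 3 arrays each, limma adjusted p = 1.03e-06), with a 95% interval of the fold from 2.53 to 3.17. Probe set 224999_at had signals of 3670.28, 3716 and 3794 with MFAP5 and 1407, 1386 and 1360.29 in control cells, a rise of 2.69-fold (limma adjusted p = 5.32e-07). Probe set 201984_s_at rose least, 2.18-fold, with 1772, 1718 and 1762 against 794, 850.1 and 766 (limma adjusted p = 6.91e-06). Its interval, 1.94-fold to 2.46-fold, lay below that of 201983_s_at, so probe sets of the same gene gave different sizes of change.

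The dimmer EGFR probe sets 210984_x_at and 211607_x_at rose 2.73-fold and 2.64-fold (limma adjusted p = 4.75e-05 and 4.27e-05). Both are of the _x_at type, which may share probes with other transcripts. Probe set 1565483_at had 81.3, 78.0 and 77.0 with MFAP5, against 31.1, 33.0 and 67.2 in control cells. Its groups did not overlap, but control replicate 3 lay near the MFAP5 arrays and the difference was not called (limma adjusted p = 0.0656). Without that array it was called, with a log2 fold change of 1.30 (adjusted p = 0.0151; range over all its alternatives 0.0151 to 0.183). The other 3 EGFR probe sets lay below the filter, and 211550_at did not exceed the Bacillus controls on any array.

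ERBB2, the partner receptor without a ligand of its own, rose modestly by its bright probe set. Probe set 216836_s_at had 1985, 1688 and 1592 on MFAP5 arrays, against 1421, 1293 and 1254 on control arrays. All MFAP5 arrays were above all control arrays, MFAP5 replicate 1 most. The rise was 1.32-fold (log2 0.40 ± 0.10, SE, n = 3 each, limma adjusted p = 0.0122). The call was lost with arrays centred on their medians (adjusted p = 0.0629) or on hybridisation controls (0.143) and in a fit without an intensity trend (0.0533). The adjusted p ranged from 0.00245 to 0.143 over its alternatives. Probe set 234354_x_at, near the filter, had 109, 74.0 and 57.0 against 76.4, 87.7 and 61.2 and was not called (adjusted p = 0.913), with a 95% interval of the fold from 0.662 to 1.63 that includes the change of the bright probe set.

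ERBB3, the receptor with weak kinase activity that pairs with ERBB2, was bright and showed no called difference. Probe set 226213_at had 6235, 6257 and 6236 with MFAP5 and 6756, 6167 and 6349 in control cells. The MFAP5 values lay inside the range of the control values. The fold was 0.973, with a 95% interval from 0.887 to 1.07 (limma adjusted p = 0.668). Probe set 202454_s_at gave 1.06-fold, with an interval from 0.946 to 1.18 (adjusted p = 0.447). Both intervals thus leave out a rise of the size measured for EGFR, and the 1.32-fold estimate of the bright ERBB2 probe set. The interval of that ERBB2 probe set, from 1.14 to 1.53, overlaps that of 202454_s_at. A difference between ERBB3 and ERBB2 was not tested. The dim probe set 1563253_s_at went another way, with 129, 154 and 184 against 112, 104 and 84.0, a log2 fold change of 0.63 ± 0.21 and no overlap (limma adjusted p = 0.0528). It was called with 50 added to each signal (adjusted p = 0.0491), without an intensity trend (0.0474) and without MFAP5 replicate 1 (0.0426), in a range of 0.0426 to 0.175. The other 2 ERBB3 probe sets lay below the filter.

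The balance of receptor transcripts was also read as a ratio within each array, which does not depend on the scaling of the arrays. The log2 ratio of EGFR to ERBB2 signal, by the brightest probe set of each, was 1.19, 1.43 and 1.35 with MFAP5, against 0.20, 0.25 and 0.24 in control cells. The log2 ratio of EGFR to ERBB3 was -0.46, -0.46 and -0.62 with MFAP5 and -2.05, -2.00 and -2.10 in control cells. Both ratios were higher on every MFAP5 array than on any control array. The ratio to ERBB2 was 2.14-fold higher with MFAP5 (difference 1.10 on the log2 scale) and that to ERBB3 2.91-fold higher (difference 1.54). The exact permutation test, two-sided, gave p = 0.1 for each, the smallest value that 3 against 3 arrays can give. The sizes of the 2 ratios themselves depend on the probes and do not compare the levels of the receptors. With all tested ERBB3 and EGFR probe sets averaged the difference to ERBB3 was 1.08.

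**Figure D2:**
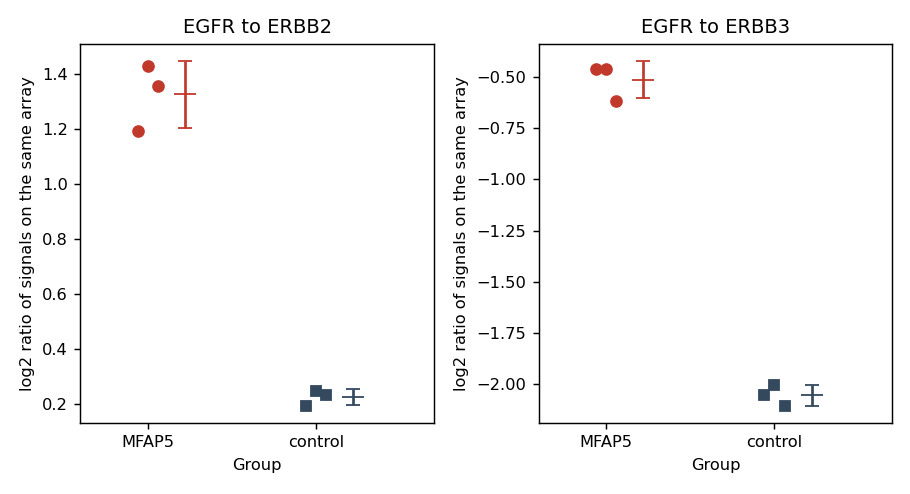
Log2 ratio of the EGFR signal to the ERBB2 signal (left) and to the ERBB3 signal (right) on the same array, 1 point per array, with mean and SD (n = 3) beside the points. In both panels the 3 MFAP5 arrays lie above the 3 control arrays, by 1.10 for ERBB2 and by 1.54 for ERBB3.

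Neuregulin NRG1, the ligand of ERBB3 and ERBB4, is transcribed into many isoforms, and its 6 probe sets did not move alike. Probe set 206237_s_at had 541, 536 and 619 on MFAP5 arrays, against 383, 367 and 315 on control arrays. It rose 1.60-fold without overlap (log2 0.67 ± 0.12, SE, n = 3 each, limma adjusted p = 0.00277). Probe set 208230_s_at had 249, 232 and 230.4 against 186, 132 and 127, a rise of 1.62-fold (limma adjusted p = 0.0199). Leaving out MFAP5 replicate 1 (adjusted p = 0.0571) or 2 (0.0561), or control replicate 2 (0.0654) or 3 (0.0509), ended this call, in a range of 0.00926 to 0.0654.

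The brightest NRG1 probe set, 206343_s_at, had 1868, 2109.7 and 2753 with MFAP5, against 2163, 2082 and 2301 in control cells. Here the groups overlapped, and MFAP5 replicate 3 alone was above all control arrays. The fold was 1.02 with a 95% interval from 0.839 to 1.23 (limma adjusted p = 0.919), which lies below the interval of 206237_s_at, from 1.33 to 1.92. The log2 ratio of 206237_s_at to 206343_s_at was -1.79, -1.98 and -2.15 on MFAP5 arrays and -2.50, -2.51 and -2.87 on control arrays. It was higher with MFAP5 on all 3 arrays, by 0.65, a description with no test, since these probe sets were paired after seeing the data. Probe set 208232_x_at had 88.2, 88.1 and 83.9 against 22.1, 53.0 and 64.5 and was not called (limma adjusted p = 0.0753), except without control replicate 3 (adjusted p = 0.0378; range 0.0378 to 0.178). Probe set 208241_at overlapped between groups and 208231_at lay below the filter.

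Heparin-binding EGF-like growth factor HBEGF, a ligand of EGFR and ERBB4, was measured past the filter by 2 of its 4 probe sets, and neither was called. Probe set 203821_at had 470.3, 434 and 511 with MFAP5 and 391, 431 and 442 in control cells, with overlap (limma adjusted p = 0.329). Probe set 38037_at had 249, 249 and 280.1 against 225, 214 and 203, without overlap but with a fold of only 1.21 (interval 0.98 to 1.50, adjusted p = 0.174). Of the 21 tested probe sets 14 had all MFAP5 arrays above all control arrays, against 21.9% of all tested probe sets, so lack of overlap alone is common here. Those 14 include EGFR 1565483_at and NRG1 208232_x_at, which passed the filter through their MFAP5 arrays.

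The other EGFR ligands were dim. TGFA, an EGFR ligand often made by carcinomas, had 71.5, 106 and 80.6 with MFAP5 and 86.9, 98.7 and 93.5 in control cells by 205016_at, the only one of its 3 probe sets past the filter, and was not called (limma adjusted p = 0.723). Betacellulin BTC had 75.9, 94.8 and 111 with MFAP5, against 43.4, 63.2 and 72.3 in control cells by 241412_at. These groups did not overlap, but the log2 fold change of 0.67 ± 0.28 was not called (adjusted p = 0.109), and the other BTC probe set, below the filter, had 51.8, 50.6 and 26.6 against 47.2, 63.2 and 36.9. Epiregulin EREG had 2 probe sets with signals from 1.48 to 23.8 on MFAP5 arrays and from 4.01 to 22.9 on control arrays, all at or below the brightest Bacillus control, so no fold is given. RefSeq places EREG and BTC on chromosome 4 in a row with EPGN and AREG, which were not analysed here.

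ERRFI1, the feedback inhibitor of EGFR and ERBB2, rose by its only probe set. It had 1282, 1146 and 1068 on the MFAP5 arrays, against 838, 714 and 707 on the control arrays. The groups did not overlap, and replicate 1 was the highest of each group. The rise was 1.55-fold (log2 0.63 ± 0.10, SE, n = 3 each, limma adjusted p = 0.00172) and a 95% interval of the fold from 1.32 to 1.81. The call held under all 14 alternatives run.

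**Figure D3:**
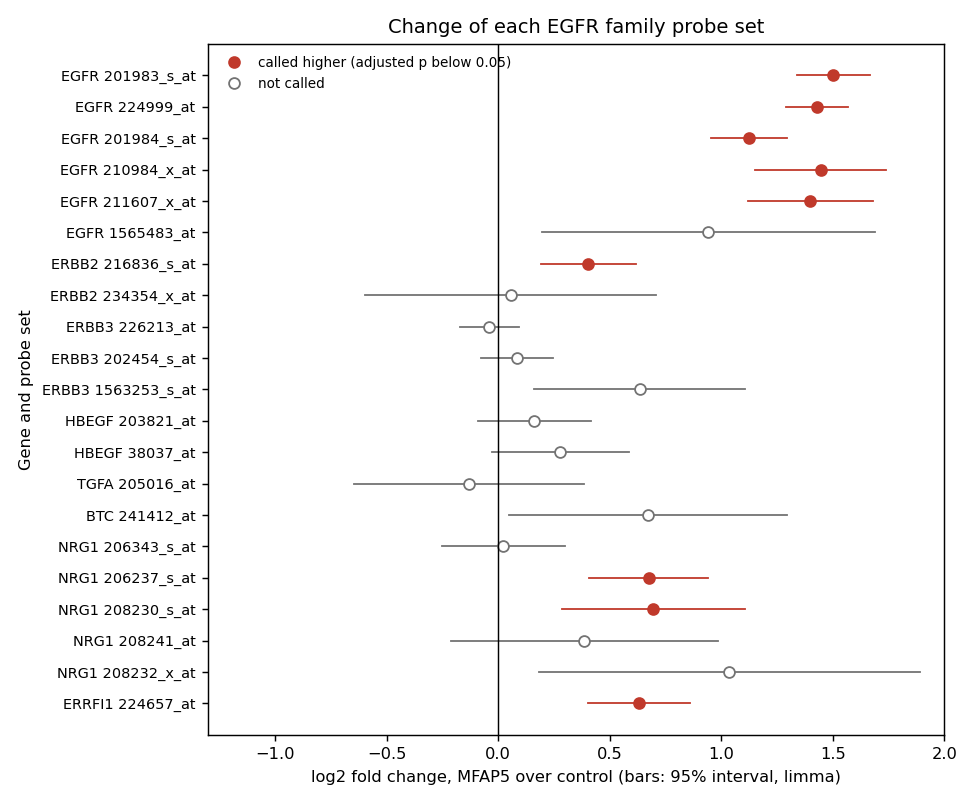
Log2 fold change of MFAP5 over control for the 21 tested probe sets, with 95% intervals from limma; filled points were called higher (adjusted p below 0.05) and open points were not called. The 5 called EGFR probe sets lie between 1.13 and 1.50, above the called probe sets of ERBB2, NRG1 and ERRFI1 at 0.40 to 0.70.

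Other genes of the pathway were read from 6 lists holding 92 genes, with the brightest probe set of each gene, of which 75 genes passed the filter. Of the 75, 33 rose, 5 fell and 37 were not called, against 14.6% of all genes called higher and 15.3% lower. The lists differed among themselves, and the genes that respond to ERK held most of the rises. Their members were chosen with earlier results of these data known, so the counts are a description.

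Of the 22 measured genes that ERK signalling is known to induce or that feed back on it, 17 rose, 1 fell and 4 were not called, with a median log2 fold change of 0.89, against -0.01 over all 12216 genes. SPRY4, a Sprouty inhibitor of RAS to ERK signalling, had 1667, 1328 and 1386 with MFAP5, against 419.7, 509.7 and 375 in control cells, a rise of 3.37-fold (limma adjusted p = 1.25e-05). ETV5, a PEA3 type transcription factor downstream of ERK, rose 3.18-fold (limma adjusted p = 6.44e-07) and its relative ETV4 rose 2.53-fold (0.00111). DUSP5, a phosphatase of nuclear ERK, rose 3.14-fold (limma adjusted p = 1.51e-06). All MFAP5 arrays were above all control arrays for these 4 genes. MYC, a growth factor induced transcription factor, was the gene that fell, by 0.56 on the log2 scale (limma adjusted p = 0.0069, range over its alternatives 0.000152 to 0.0492; named after its value was seen).

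Proteases and cofactors that release the ligands from the membrane rose in part: of 6 measured genes 4 rose and none fell (limma; none lower at an unadjusted p below 0.05 either), with a median of 0.43. ADAM17, the main sheddase of TGFA, AREG and HBEGF, had 2429, 2446 and 2479 with MFAP5 and 1834, 1772 and 1986 in control cells, a rise of 1.32-fold (limma adjusted p = 0.00254). ADAM10, the main sheddase of BTC, rose 1.38-fold (adjusted p = 0.0158), ADAM9 1.40-fold (0.0068) and RHBDF1, an iRhom that helps ADAM17 to the surface, 1.51-fold (0.0092). The groups did not overlap for any of the 4. The ADAM17 call was lost with arrays centred on hybridisation controls (adjusted p = 0.136; range 0.00101 to 0.136). That of ADAM10 was lost with arrays centred on medians (0.0686), without an intensity trend (0.0778) and without control replicate 1 (0.0637), MFAP5 replicate 2 (0.0516) or MFAP5 replicate 3 (0.0515), in a range of 0.000359 to 0.0778.

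The remaining receptor ERBB4 rose 1.37-fold by its brightest probe set, with 4692, 4463 and 4396 on MFAP5 arrays, against 3049.7, 3668 and 3206 on control arrays (limma adjusted p = 0.00225). The call was lost with arrays centred on hybridisation controls (adjusted p = 0.0528). Its 2 further tested probe sets were not called, and with the 3 averaged the log2 fold change was 0.04 (adjusted p = 0.687; range 0.00148 to 0.687). NRG2, a further neuregulin, was not called, and EGF, NRG3 and NRG4 lay below the filter. Of the 20 genes that attenuate or sort the receptors, 4 rose, 1 fell and 15 were not called (median log2 fold change 0.04). Among all genes 14.6% were called higher and 15.3% lower. CBLB and CBL, ubiquitin ligases that send active EGFR to the lysosome, rose 1.51-fold (limma adjusted p = 0.000223) and 1.39-fold (0.0141), and SOCS4, which targets EGFR for degradation, 1.42-fold (0.00613). The CBL call was lost with arrays centred on medians (0.0692) or on hybridisation controls (0.101) and without an intensity trend (0.0502), in a range of 0.00586 to 0.101. PTPN2, a phosphatase, was 1.24-fold lower at the threshold (limma adjusted p = 0.0499), and kept its call under 6 of 15 alternatives (range 0.00787 to 0.138). It was not called without control replicate 1 (0.0971), 2 (0.111) or 3 (0.0989), nor without MFAP5 replicate 1 (0.101) or 2 (0.0544). The inhibitor LRIG1 was not called (1.08-fold, limma adjusted p = 0.317, named after its value was seen). It was called with all its tested probe sets averaged, with a log2 fold change of 0.35 (limma adjusted p = 0.0305, range 0.0305 to 0.858).

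Genes of the signalling core both rose and fell, in a series where 14.6% of all genes were called higher and 15.3% lower. Of 12 measured adaptor and RAS to ERK genes, 3 rose, 2 fell and 7 were not called (median 0.11). HRAS had 1030.4, 846 and 891 with MFAP5, against 1632, 1701 and 1291 in control cells, and was 1.66-fold lower (limma adjusted p = 0.00154). SOS1, an exchange factor for RAS, was 1.28-fold lower (limma adjusted p = 0.00877) by its brightest probe set. Of its 3 further tested probe sets 1 was called in the same and 1 in the opposite direction. SOS1 was not called with all tested probe sets averaged (limma adjusted p = 0.139, range 0.00187 to 0.139). The phosphatase PTPN11 rose 1.28-fold (limma adjusted p = 0.00603) and the kinase MAP2K1 1.26-fold (0.00359). Of 13 measured PI3K, AKT, PLCG and STAT genes, 4 rose, 1 fell and 8 were not called (median 0.10). PLCG2, a phospholipase C best known from blood cells, had 2908, 2786 and 2809 on MFAP5 arrays, against 986, 1139.8 and 1055 on control arrays, a rise of 2.68-fold (limma adjusted p = 1.51e-06). STAT3, a transcription factor activated by EGFR and cytokine receptors, rose 1.52-fold (adjusted p = 0.000643), PDPK1 1.31-fold (0.00464) and PIK3CB 1.21-fold (0.0177). With arrays centred on hybridisation controls MAP2K1 (0.196), PTPN11 (0.131), SOS1 (0.0862), PDPK1 (0.132), PIK3CB (0.381), SOCS4 (0.0775) and PTPN2 (0.107) were not called. The PTPN11 call was also lost with arrays centred on medians (0.0647) and with its probe sets averaged (log2 0.14, adjusted p = 0.16), in a range of 0.00122 to 0.16. The PIK3CB call was also lost with arrays centred on medians (0.207), without an intensity trend (0.0611), with its probe sets averaged (0.266) and without control replicate 1 (0.0717), MFAP5 replicate 2 (0.0551) or MFAP5 replicate 3 (0.056), in a range of 0.0122 to 0.381.

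**Figure D4:**
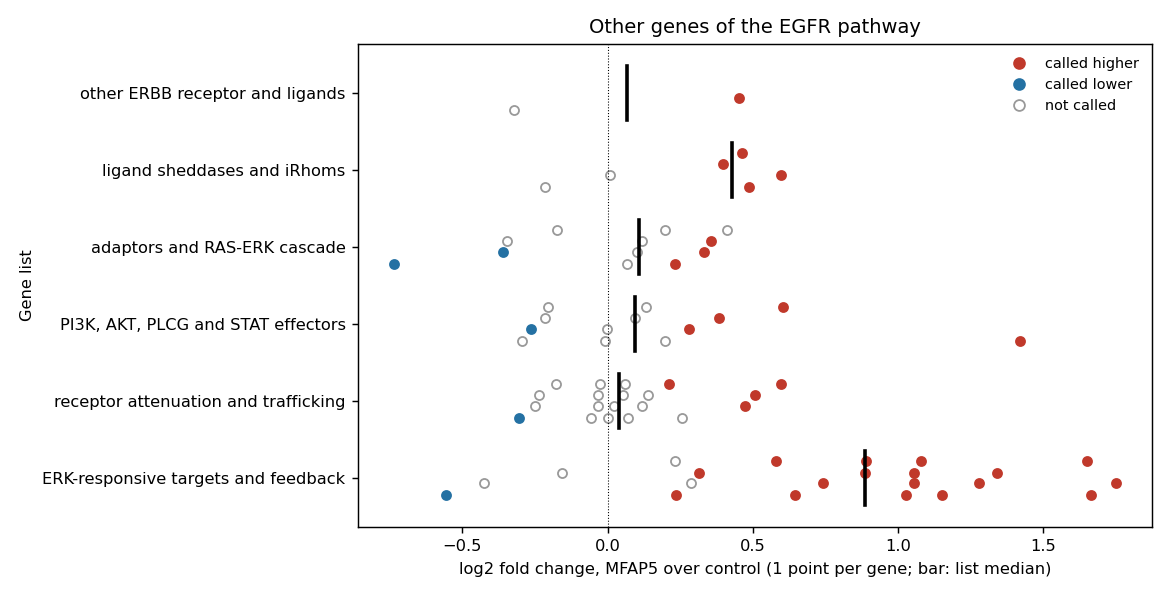
Log2 fold change of MFAP5 over control for the 75 other pathway genes past the filter, 1 point per gene (brightest probe set) in 6 lists; red points were called higher, blue points lower and open points not called, and the vertical bar is the median of the list. The list of ERK-responsive genes has its median at 0.89, and those of the signalling core and of receptor attenuation lie at 0.04 to 0.11.

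RNA quality moved little between the groups. The log2 ratio of 3′ to 5′ control probe sets averaged -0.10 ± 0.03 with MFAP5 and -0.13 ± 0.07 in control cells for GAPDH (SD, n = 3 each, exact permutation p = 0.5), and 0.28 ± 0.06 and 0.30 ± 0.06 for ACTB (exact permutation p = 0.6). These p-values cannot go below 0.1 with 3 against 3 arrays.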

How the data were processed

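Values were the MAS5 signals (linear intensity per probe set) that the authors deposited for 6 arrays; per the submitters' processing notes they used MAS5, with no version given, and the values show scaling of each array to a trimmed mean of 500.07. Detection calls were not used. Genes were named through the platform annotation, and only probe sets with 1 symbol were named. A further pathway list of 92 genes had 80 with such a probe set; the rest were not analysed here.

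Signals were taken to log2 without a pseudocount or further scaling, the 62 Affymetrix control probe sets were left out, and the dimmer part of the probe sets, with a mean log2 signal below the median, was dropped, leaving 27307. The test was limma 3.58.1 in R 4.3.3 (eBayes with an intensity trend, two-sided, Benjamini-Hochberg adjustment over all tested), a procedure tested on simulated data. Members were described through all their probe sets, those below the filter partly as counts; of each pathway list, up to 4 called genes with the largest change were named, plus MYC and LRIG1, added after their values were seen. Members and lists were chosen with earlier results of these data known. Alternatives were 3 scalings, 50 added to each signal, 2 filters, no trend, a replicate block, averaged tested probe sets and leaving out each array.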

Additional observations from a re-analysis of the deposited data

How the results depend on the processing

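The 9 member probe sets called higher were 6 to 10 over the 14 alternatives (6 under the stricter filter at the 75% quantile, where fewer were tested), and 0 were lower in each. No member or pathway probe set run under the alternatives changed direction where it was called. Over all probe sets 2302 were higher and 5975 lower with arrays centred on medians, which moved the median log2 fold change of the tested probe sets to -0.12, against 0.02. They were 1920 and 2011 with centring on 18 hybridisation controls, and 2422 were higher under the stricter filter. Leaving out 1 array gave 2532 to 3557 higher and 2118 to 3117 lower, lowest without MFAP5 replicate 2. The EGFR to ERBB3 difference was 1.08 with all tested probe sets averaged. That average takes in ERBB3 1563253_s_at, with a log2 fold change of 0.63, against -0.04 and 0.08 for the brighter ones. It also takes in EGFR probe sets that rose less than the brightest. Samples shared replicate numbers only: deviations of same-numbered samples correlated at 0.09, -0.01 and 0.17, and not every sample correlated best with its own number. With a replicate block 9 member probe sets were higher and 0 lower, 4214 and 3774 in all, and no call of those probe sets changed. Of 628 single results under alternatives 580 kept their call, 42 lost it and 6 gained it. The calls lost most often were those of PTPN2 and PIK3CB, kept under 6 and 8 of 15 alternatives. Their mean control signals, 2656 and 1638, lay far above the Bacillus controls. Dim probe sets could also gain a call, as EGFR 1565483_at and NRG1 208232_x_at did without control replicate 3.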
